A study of Mus musculus with 16 samples.

Results

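The liver makes most of the proteins of blood coagulation. The 10 genes described here are the coagulation genes F2, F5, F7, F9, F10, F11 and F12, the anticoagulant genes Proc and Serpinc1, and Plg, the precursor of the clot-dissolving enzyme plasmin. They were taken by gene name, and all 10 were found among the 24394 gene names that the count tables of both experiments share. All 10 passed the filter on low counts in every comparison.

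Coagulation runs as a cascade of proteases that cut and activate one another. Factor VII, with its cofactor tissue factor, starts the extrinsic branch; factors XII, XI and IX form the contact and intrinsic branch; both branches activate factor X, which with its cofactor factor V turns prothrombin into thrombin, and thrombin turns fibrinogen into fibrin. Antithrombin and activated protein C hold the cascade back, and plasmin dissolves the clot. Prothrombin, factors VII, IX and X and protein C carry a vitamin K-dependent modification that is made in hepatocytes.

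Livers of mice were profiled by mRNA-seq in 2 experiments, with 4 libraries in each of the 4 groups. The double knockout livers (DKO) came from Alb-Cre+ mice homozygous for floxed ARID1A and for floxed ARID1B, and their controls from Alb-Cre- mice with these same floxed alleles. The ARID1B knockout livers (BKO) came from Alb-Cre+ mice homozygous for floxed ARID1B alone, and their controls from Alb-Cre- mice with that allele. ARID1A and ARID1B are alternative DNA-binding subunits of SWI/SNF chromatin remodelling complexes, and the albumin promoter drives Cre in hepatocytes and in the progenitors they share with bile duct cells. Every knockout library carried Cre and no control library did, so Cre and gene loss cannot be told apart. No group lacked ARID1A alone, and neither age nor sex of the animals is given in the sources used here. Libraries are called by their animal tags, DKO-7068, DKO-7070, DKO-7112 and DKO-7137 and, for the controls, WT-7067, WT-7069, WT-7114 and WT-7139. Nothing beyond the tags says that the libraries came from separate animals, and ARID1B-F5-WT and ARID1B-F5-WT-2, among the BKO controls, share the tag F5 and may be 1 animal. So p-values measure the spread between these libraries. With those 2 controls summed into 1, none of the 10 genes passed the edgeR test in BKO livers, as with 4 controls.

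A library of the DKO experiment held 8699417 to 11031443 counts and one of the BKO experiment 21151726 to 40551934, and the lowest count of a coagulation gene in any library was 248. Levels are given as CPM, counts per library size after scaling by the trimmed mean method (TMM). Arid1b fell in both knockouts, to 45.4 to 78.0 CPM in DKO livers, against 80.7 to 97.3 CPM in their controls (edgeR adjusted p = 0.0167), and to 40.1 to 48.4 CPM in BKO livers, against 81.9 to 86.4 CPM in their controls (edgeR adjusted p = 0.00154). Arid1a spanned 99.6 to 114 CPM in DKO livers, against 112 to 136 CPM in their controls, and its fold change did not pass the test (log2 fold change -0.20, edgeR adjusted p = 0.149). Counts over a whole gene also hold reads from undeleted exons and from cells without Cre. Within the DKO group, DKO-7068 and DKO-7070 were closer to each other than any other pair, at 7.32 for the chi-square over genes divided by its degrees of freedom, against 35.2 to 60.4 in the other DKO pairs. The pair still differed by more than counting error, and the libraries were kept as 2 replicates. With them summed into 1, the DKO comparison gave 1 coagulation gene higher and 4 lower, since F10 lost its call. DKO-7112 was the highest DKO library for every coagulation gene but F7, and for F9, F10, F11, F12 and Serpinc1 the values without it are given beside the gene.

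F7 and F10 are neighbours in the genome, and F9 and F11 belong to the intrinsic branch. Their start regions are shown because F7 and F10 moved in opposite directions in DKO livers while F9 and F11 fell. Each window runs from 250 bases before to 50 bases after the annotated start in RefSeq on GRCm38.p6, read 5′ to 3′ along the gene. Capitals mark matches to the short form CAAAGT or the longer form CAAAGNNCA of a site known to bind HNF4, a hepatocyte transcription factor, on either strand.

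F7, chr8:13025784-13026083 (+): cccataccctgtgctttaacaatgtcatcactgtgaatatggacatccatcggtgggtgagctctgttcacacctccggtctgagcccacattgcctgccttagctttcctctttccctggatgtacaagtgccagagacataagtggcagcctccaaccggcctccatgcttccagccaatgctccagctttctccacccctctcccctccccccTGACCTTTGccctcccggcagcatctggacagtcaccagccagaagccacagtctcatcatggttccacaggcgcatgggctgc

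F10, chr8:13037058-13037357 (+): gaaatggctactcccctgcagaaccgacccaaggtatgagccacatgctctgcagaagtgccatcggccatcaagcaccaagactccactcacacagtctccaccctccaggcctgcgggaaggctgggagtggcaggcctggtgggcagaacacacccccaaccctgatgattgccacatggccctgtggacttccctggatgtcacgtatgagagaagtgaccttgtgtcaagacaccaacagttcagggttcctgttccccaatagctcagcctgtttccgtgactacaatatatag

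F9, chrX:59999214-59999513 (+): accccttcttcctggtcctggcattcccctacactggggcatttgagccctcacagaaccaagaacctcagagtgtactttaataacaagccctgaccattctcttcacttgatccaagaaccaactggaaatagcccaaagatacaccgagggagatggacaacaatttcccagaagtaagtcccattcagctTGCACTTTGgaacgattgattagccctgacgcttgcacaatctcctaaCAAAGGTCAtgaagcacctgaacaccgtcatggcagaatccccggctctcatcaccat

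F11, chr8:45261982-45262281 (-): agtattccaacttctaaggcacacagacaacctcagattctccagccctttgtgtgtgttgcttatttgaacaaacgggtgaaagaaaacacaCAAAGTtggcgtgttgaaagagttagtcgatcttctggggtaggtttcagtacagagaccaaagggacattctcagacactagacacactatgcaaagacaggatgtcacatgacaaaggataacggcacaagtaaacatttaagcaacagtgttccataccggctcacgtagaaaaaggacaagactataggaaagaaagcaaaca

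Windows of 8 of the 10 genes were read. The short form CAAAGT, searched first, was in the windows of F9 and F11 and in 14.4% of all 32851 RefSeq promoter windows of the same length. The longer form CAAAGNNCA was added after the windows had been read. It was in the windows of F7, F9 and Serpinc1 and in 6.36% of all windows. The 2 forms overlap at the match 53 bases before the start of F9. Of the windows shown, that of F7 held the longer form 34 bases before its start, that of F11 held the short form 157 bases before its start, and that of F10 held neither. TATAAA was in none of the 8 windows and in 13.6% of all windows. A match is a string of letters and not a measured site, and the set of genes that held one changed with the form that was searched.

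In DKO livers 5 of the 10 coagulation genes fell, 1 rose and 4 did not pass the test. F5, F9, F10, F11 and Proc fell by 0.56 to 1.28 on the log2 scale, and F7 rose by 0.53. Over all 12848 genes tested, 16.6% were lower and 19.2% were higher in DKO livers at the same threshold, an edgeR adjusted p under 0.05. The median log2 fold change was -0.46 over the 10 coagulation genes and 0.02 over all genes tested. In whole liver, fewer hepatocytes and less RNA per hepatocyte cannot be told apart.

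The gene of the initiating protease was the only one of the 10 that rose in DKO livers. F7, which encodes factor VII, lies on chromosome 8 at 13026034 to 13035809 on the plus strand (GENCODE M21, GRCm38, as for all positions that follow). It stood at 158, 159, 165 and 168 CPM in DKO livers, against 117, 102, 103 and 129 CPM in their controls, in the order of the tags above. Every DKO library was above every control, and the DKO values lay closer together, relative to their mean, than those of the other 9 genes. The mean was 163 ± 4.98 CPM in DKO livers and 113 ± 12.9 CPM in their controls (SD, n = 4 each), a log2 fold change of 0.53 (SE 0.11, edgeR adjusted p = 0.00369).

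F10 and F5 form the enzyme and cofactor pair that makes thrombin, and both fell. F10, at 13037308 to 13056676 on chromosome 8, begins 1499 bases after the end of F7 and on the same strand. F10 stood at 141, 165, 306 and 166 CPM in DKO livers, against 335, 333, 308 and 333 CPM in their controls. DKO-7112 reached almost the lowest control, while the other 3 DKO libraries lay together far below. The log2 fold change of F10 was -0.75 (SE 0.22, edgeR adjusted p = 0.0231). It was -1.08 without DKO-7112 (edgeR adjusted p = 0.000127), and the call was lost without DKO-7068 (edgeR adjusted p = 0.0635), without DKO-7070 (0.0679) or without DKO-7137 (0.0562). It was also lost with DKO-7068 and DKO-7070 summed (edgeR adjusted p = 0.0634).

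F5, on chromosome 1 at 164151838 to 164220277, encodes factor V, the cofactor of activated factor X. F5 stood at 632, 718, 882 and 693 CPM in DKO livers, against 1176, 1447, 1258 and 1376 CPM in their controls. The groups did not overlap, and DKO-7112 was again the highest DKO library. F5 averaged 731 ± 107 CPM in DKO livers and 1314 ± 121 CPM in their controls (SD, n = 4 each), with a log2 fold change of -0.85 (SE 0.15, edgeR adjusted p = 0.00183).

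F2, on chromosome 2 at 91625320 to 91636414, encodes prothrombin, the substrate of that pair. F2 stood at 1251, 1305, 1518 and 1497 CPM in DKO livers, against 1474, 1481, 1366 and 1598 CPM in their controls. The groups overlapped, and the log2 fold change was -0.09 with a 95% confidence interval of -0.40 to 0.22 (edgeR adjusted p = 0.665). So prothrombin RNA did not pass the test while RNA of the enzyme and of the cofactor that activate it fell.

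**Figure D1:**
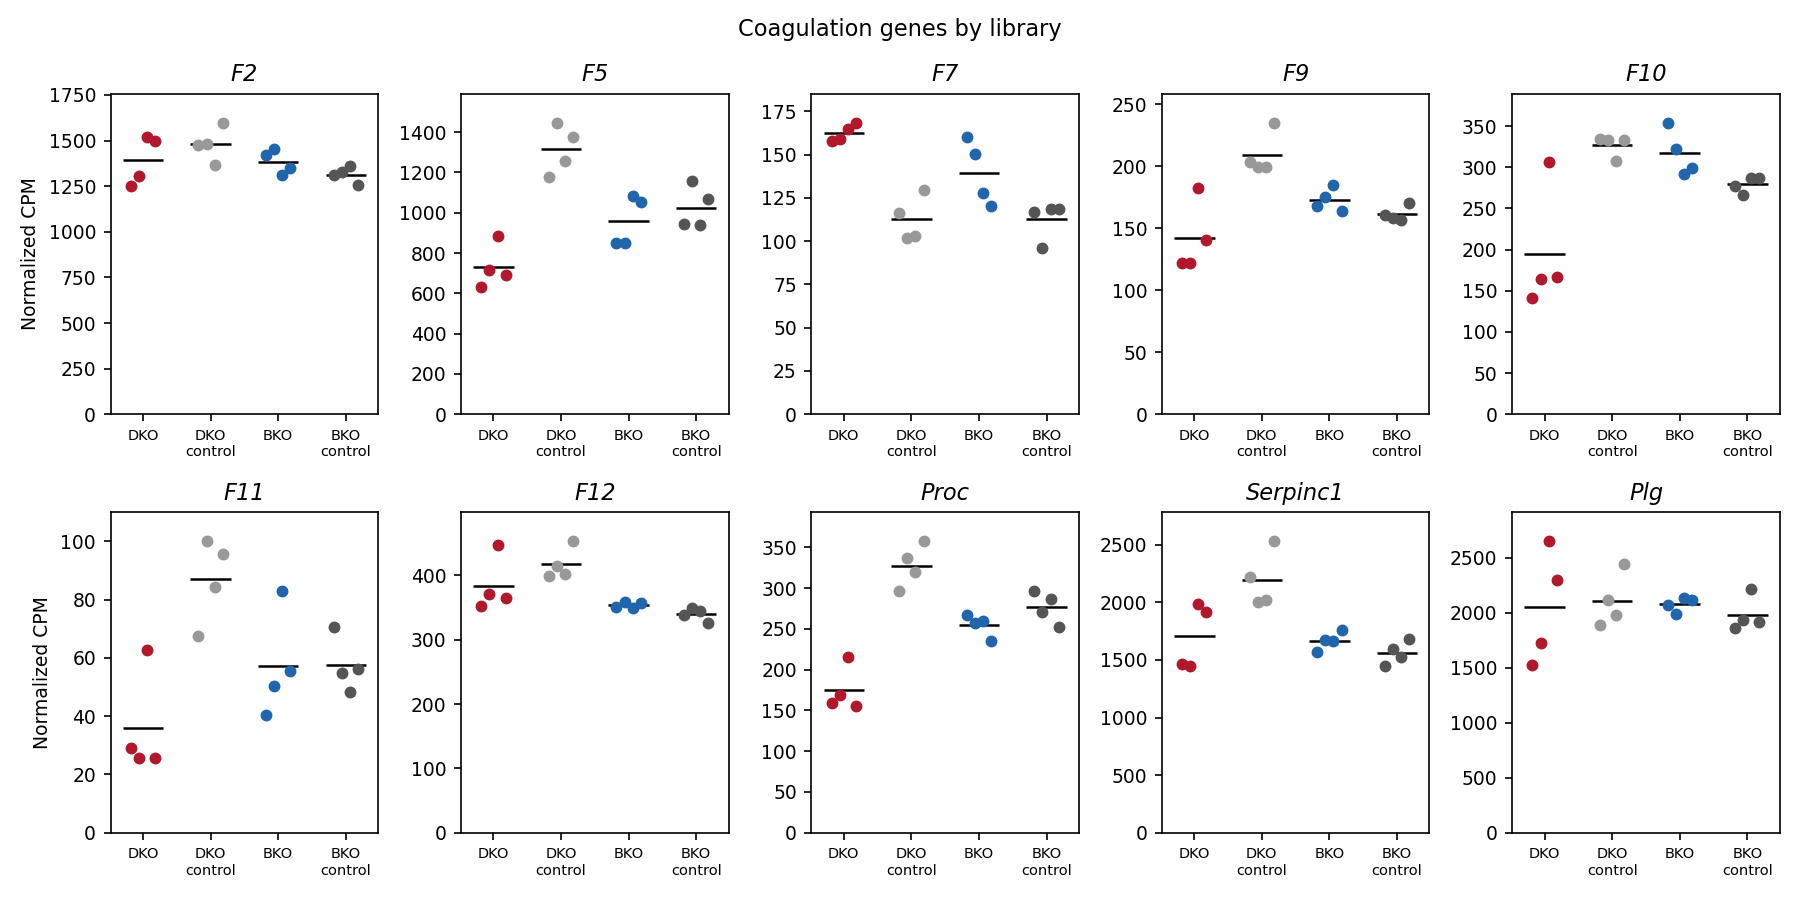
Normalized CPM (y axes, from 0) of the 10 coagulation genes in each library, with DKO and BKO livers each left of their own Cre-negative controls; points are libraries and lines are means of 4. The DKO points of F5, F9, F10, F11 and Proc lie below all of their controls, as do those of Serpinc1 by a narrow margin, and those of F7 lie above. In F10 and F11 a single DKO library, DKO-7112, stands above the other 3.

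In the intrinsic branch F11 and F9 fell, and F12 did not pass the test. F11, on chromosome 8 at 45241174 to 45262031 on the minus strand, encodes factor XI, which activates factor IX. F11 stood at 29.1, 25.7, 62.7 and 25.7 CPM in DKO livers, against 67.6, 100.05, 84.4 and 95.6 CPM in their controls. DKO-7112 lay just under the lowest control, and the other 3 libraries were at less than 30 CPM. The log2 fold change was -1.28 (SE 0.30, edgeR adjusted p = 0.00959), the greatest of the 10 genes in size, and -1.72 without DKO-7112 (edgeR adjusted p = 3.24e-05).

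F9, on chromosome X at 59999464 to 60030759, encodes the vitamin K-dependent factor IX. F9 stood at 122, 122, 183 and 141 CPM in DKO livers, against 204, 199.6, 199 and 235 CPM in their controls. The groups did not overlap. The log2 fold change of F9 was -0.56 (SE 0.15, edgeR adjusted p = 0.0134), and -0.73 without DKO-7112, which lay above the other DKO libraries (edgeR adjusted p = 0.00104).

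F12, on chromosome 13 at 55417958 to 55426793, encodes factor XII, which starts the contact branch. F12 stood at 353, 370.3, 447 and 365 CPM in DKO livers, against 399, 414, 402 and 453 CPM in their controls. The groups overlapped through DKO-7112, and the log2 fold change was -0.12 with a 95% confidence interval of -0.40 to 0.16 (edgeR adjusted p = 0.504). Without DKO-7112 it was -0.22 (edgeR adjusted p = 0.165).

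Of the 2 anticoagulant genes, Proc fell and Serpinc1 did not pass the test. Proc, on chromosome 18 at 32123126 to 32139570, encodes protein C, which once activated cuts factor V and factor VIII. Proc stood at 159, 169, 215 and 156 CPM in DKO livers, against 296, 337, 319 and 358 CPM in their controls. All 4 DKO libraries were well below the lowest control. Its log2 fold change was -0.91 (SE 0.14, edgeR adjusted p = 0.000685), the lowest adjusted p of the 10 genes.

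Serpinc1, on chromosome 1 at 160978585 to 161005863, encodes antithrombin, the inhibitor of thrombin and of factor X. Serpinc1 stood at 1467, 1451, 1988 and 1914 CPM in DKO livers, against 2217, 2005, 2022 and 2531 CPM in their controls. The groups did not overlap, although the highest DKO library lay next to the lowest control. The log2 fold change was -0.36 (95% confidence interval -0.74 to 0.01, edgeR adjusted p = 0.121). Serpinc1 passed the threshold in DESeq2 (adjusted p = 0.0379), in edgeR without DKO-7112 (adjusted p = 0.0476) and in an edgeR fit of all 16 libraries (adjusted p = 0.0262).

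Plg, on chromosome 17 at 12378608 to 12419385, encodes plasminogen and varied widely between DKO libraries. Plg stood at 1525, 1723, 2651 and 2300.4 CPM in DKO livers, against 1884, 2113, 1979 and 2439 CPM in their controls. The DKO libraries ran from below the lowest control to above the highest, and the log2 fold change was -0.04 with a 95% confidence interval of -0.48 to 0.40 (edgeR adjusted p = 0.906).

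Among the 5 vitamin K-dependent genes, F9, F10 and Proc fell, F7 rose and F2 did not pass the test. The ratio of F7 to F10 counts was 0.539 to 1.12 in DKO livers, against 0.306 to 0.389 in their controls. The ratio of F12 to F11 was 7.13 to 14.4 in DKO livers, against 4.14 to 5.91 in their controls. Neither ratio overlapped between the groups, and neither depends on how libraries were scaled. For F7 over F10 the lack of overlap follows from the levels given above, since F7 lay above and F10 below every control. F2 over Serpinc1 did not overlap either, at 0.763 to 0.899 in DKO livers and 0.631 to 0.739 in their controls. The BKO controls, at 0.746 to 0.905, covered that whole DKO range. F12 over F11 was 4.20 to 8.68 in BKO livers and 4.78 to 7.17 in their controls, which both reached into the DKO range. F7 over F10, at 0.402 to 0.467 in BKO livers and 0.361 to 0.421 in their controls, stayed below it. How many ratios of other gene pairs did not overlap was not counted.

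Per kilobase of the principal GENCODE M21 transcript, which allows levels to be compared between genes, Plg and F2 led in both groups, at 743 and 701 CPM per kb in DKO livers, against 763 and 744 CPM per kb in their controls. F11 was lowest in both, at 16.0 CPM per kb in DKO livers and 38.8 CPM per kb in their controls. F7 came ninth of the 10 in the controls, at 60.6 CPM per kb. In DKO livers, at 87.5 CPM per kb, F7 stood between F5 at 98.4 and F10 at 77.8, neighbours whose library ranges overlap its own. Together the 10 genes took 0.673% to 0.848% of all counts in DKO livers and 0.766% to 0.870% in their controls, so these ranges overlapped.

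In BKO livers none of the 10 genes passed the edgeR test, where 0.398% of the 14061 genes tested were lower and 0.185% higher. DESeq2 and limma-voom also called none of the 10. At an unadjusted p under 0.05 there was 1, F7. Ordered from the lowest p, F7 ranked 793 among the 14061 genes tested, so genes outside the 10 passed that looser threshold too. The share of all genes that passed it was not counted, so 1 of 10 is not set apart from the background. F7 stood at 159.9, 150.4, 128 and 121 CPM in ARID1B-F1-KO, ARID1B-F3-KO, ARID1B-F4-KO and ARID1B-F6-KO, against 117, 96.3, 118.5 and 118 CPM in ARID1B-F2-WT, ARID1B-F5-WT-2, ARID1B-F5-WT and ARID1B-F7-WT. All 4 BKO libraries were above all 4 controls, by a margin that was narrow for the lowest of them. The log2 fold change of F7 was 0.31 with a 95% confidence interval of 0.07 to 0.55 (edgeR adjusted p = 0.296).

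F10 stood at 354, 322, 292 and 299.6 CPM in BKO livers, against 278, 267, 287 and 287 CPM in their controls. These groups did not overlap either, and the log2 fold change of F10 was 0.18 (95% confidence interval -0.02 to 0.38, edgeR adjusted p = 0.477). The other 8 genes overlapped between the groups. How many of all genes tested did not overlap was not counted in either experiment, so non-overlap has no background to be set against. Their log2 fold changes ran from -0.12 for Proc to 0.10 for F9. F11 had the widest interval, -0.48 to 0.47, and F12 the narrowest, -0.11 to 0.23. The median over the 10 genes was 0.07, and that over all genes tested was 5.14e-05.

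**Figure D2:**
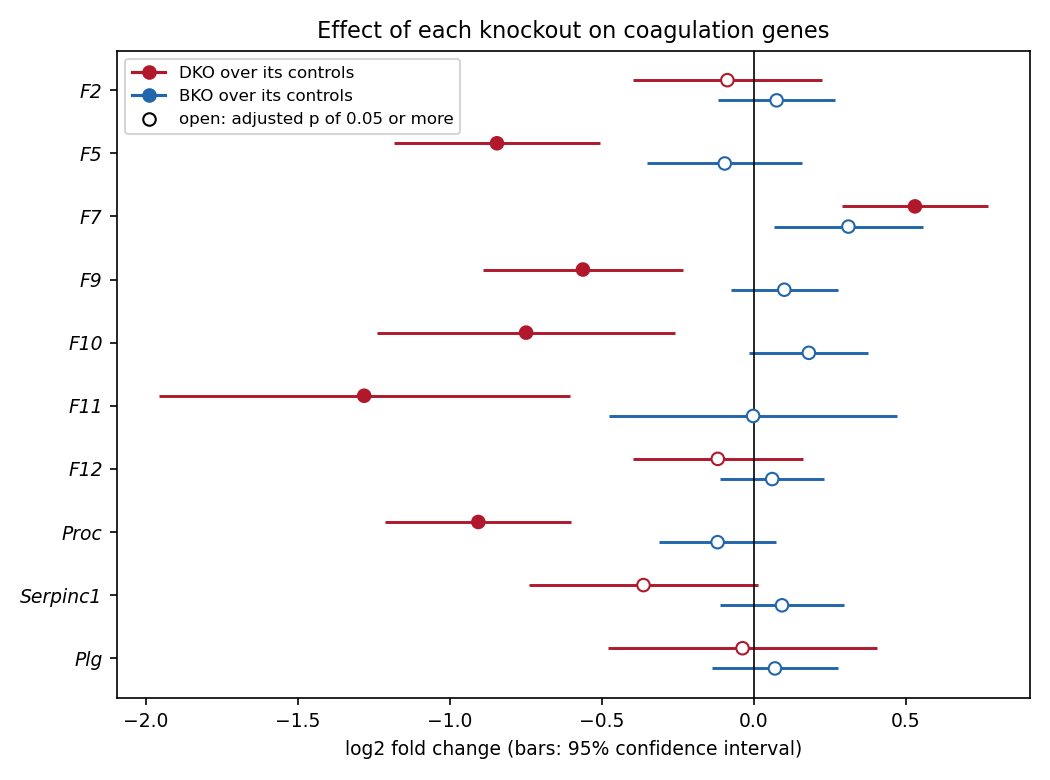
Log2 fold change of each knockout over its own controls (x axis) for the 10 coagulation genes, with DKO above BKO; bars are 95% confidence intervals, n = 4 libraries per group, and filled points have an edgeR adjusted p under 0.05. F5, F9, F10, F11 and Proc are filled to the left and F7 to the right in DKO livers, and no BKO point is filled.

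Whether the 2 knockouts differed was tested directly, as the DKO effect minus the BKO effect over all 16 libraries; the comparisons share no control library. F5, F9, F10, F11 and Proc were lower in this contrast and none of the 10 was higher, against 11.5% of the 14050 genes tested that were lower and 11% that were higher. The difference of the log2 fold changes was -0.78 for F5 (SE 0.19, edgeR adjusted p = 0.00701), -0.69 for F9 (SE 0.17, adjusted p = 0.00605) and -0.96 for F10 (SE 0.25, adjusted p = 0.0101). It was -1.31 for F11 (SE 0.39, edgeR adjusted p = 0.0266) and -0.82 for Proc (SE 0.16, adjusted p = 0.00136). The call of F11 was lost without DKO-7068, DKO-7070, DKO-7137, WT-7069, ARID1B-F4-KO or ARID1B-F5-WT (edgeR adjusted p = 0.0518 to 0.0596), and with both pairs of libraries in doubt summed, DKO-7068 with DKO-7070 and the F5 controls (edgeR adjusted p = 0.0834).

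F7, positive in both knockouts, did not pass the test of the difference, at 0.19 with a 95% confidence interval of -0.14 to 0.52 (edgeR adjusted p = 0.421). For Serpinc1 the difference was -0.49 (edgeR adjusted p = 0.0692). F2, F12 and Plg gave differences of -0.19, -0.21 and -0.14, with edgeR adjusted p-values of 0.390, 0.286 and 0.706. Genotype and whatever else separated the 2 experiments, depth included, cannot be told apart in this contrast.

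F7 sits between a gene that rose and a gene that fell. Mcf2l, which encodes a guanine nucleotide exchange factor and was picked out after its values were seen, ends 5129 bases before F7 on the same strand. Mcf2l stood at 17.2, 22.2, 19.2 and 10.3 CPM in DKO livers, against 1.01, 0.382, 0.897 and 0.252 CPM in their controls (log2 fold change 4.73, SE 0.38, edgeR adjusted p = 1.59e-05). Proz, which encodes the vitamin K-dependent protein Z, begins 4238 bases after F10 and fell, to 209 ± 39.0 CPM in DKO livers, against 348 ± 11.4 CPM in their controls (SD, n = 4 each; log2 fold change -0.74, edgeR adjusted p = 0.00273). Along this stretch 2 genes in a row rose and the next 2 fell. Klkb1, which encodes plasma prekallikrein, lies 4658 bases from F11 and fell as F11 did, to 138 ± 31.7 CPM in DKO livers, against 217 ± 13.2 CPM in their controls (SD, n = 4 each; log2 fold change -0.66, edgeR adjusted p = 0.00805). The nearest protein-coding gene on each side of a coagulation gene, without overlap, was taken as its neighbour. Of the 18 neighbours that are not among the 10, 3 rose, 3 fell, 7 did not pass the test and 5 were not tested. Over all 12848 genes tested, 19.2% were higher and 16.6% lower. Whether neighbours move alike was not tested.

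**Figure D3:**
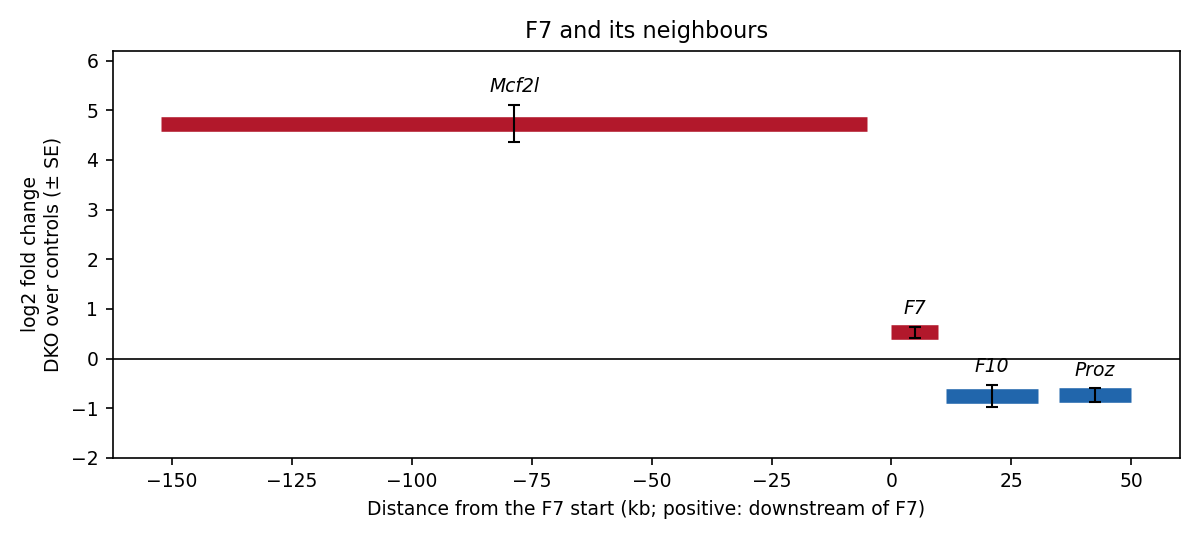
Log2 fold change in DKO livers over controls (y axis, bars ± SE) of F7 and its neighbours, drawn as blocks from start to end against the distance from the F7 start in kb (x axis). Mcf2l and F7 lie above 0, and F10 and Proz, which follow F7 on the same strand, lie below 0.

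Around the 10 genes, the rest of the clotting system moved in several directions in DKO livers. Fibrinogen and factor XIII genes held 2 that rose among 4 tested, with a median log2 fold change of 0.92. Fgb, a fibrinogen chain, averaged 5269 ± 2484 CPM in DKO livers and 2566 ± 166 CPM in their controls (SD, n = 4 each; edgeR adjusted p = 0.0234), and F13b, the carrier subunit of factor XIII, rose 1.498-fold (edgeR adjusted p = 0.0106). Fgb was at 7366 and 7472 CPM in DKO-7112 and DKO-7137 and at 3024 and 3214 CPM in DKO-7068 and DKO-7070, and its call was lost without DKO-7112, DKO-7137, WT-7067, WT-7114 or WT-7139 (edgeR adjusted p = 0.0515 to 0.0592). Fga and Fgg, the other fibrinogen chains, were 1.89-fold and 1.90-fold higher, with edgeR adjusted p-values of 0.0640 and 0.0747.

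In the contact system, which starts with factor XII, 2 of 4 genes rose and 1 fell. Kng1, the precursor of bradykinin, averaged 3391 ± 723 CPM in DKO livers and 1608 ± 86.8 CPM in their controls (SD, n = 4 each; edgeR adjusted p = 0.00103), Kng2 rose 1.74-fold (edgeR adjusted p = 0.00511), and Klkb1 fell as given above. Of the 3 procoagulant genes made largely outside hepatocytes, Vwf, the carrier of factor VIII, rose 1.80-fold (edgeR adjusted p = 0.0100), F8 was 1.44-fold higher in controls (edgeR adjusted p = 0.00306), and F3, tissue factor, did not pass the test.

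The other anticoagulant genes held 4 that rose and 1 that fell among 8 tested. Serpina10, the partner of protein Z in inhibiting factor X, averaged 427 ± 89.6 CPM in DKO livers and 162 ± 17.0 CPM in their controls (SD, n = 4 each; edgeR adjusted p = 0.000170), while Proz fell. Procr and Thbd, which on endothelium help to activate protein C, rose 2.24-fold and 1.84-fold (edgeR adjusted p = 0.0216 and 0.0193), and Tfpi, the inhibitor of the tissue factor pathway, rose 1.55-fold (edgeR adjusted p = 0.0171). Procr was near 0 in both groups, with means of 1.71 CPM in DKO livers and 0.763 CPM in their controls. Procr lost its call without DKO-7070, WT-7069 or WT-7114, Thbd without DKO-7070 or WT-7139, and Tfpi without DKO-7112, with edgeR adjusted p-values of 0.0534 to 0.0725.

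Of 11 fibrinolysis genes 8 rose and none fell, with a median log2 fold change of 1.37. Serpine2, a protease inhibitor, rose 8.74-fold, Anxa2, a plasminogen receptor, 3.99-fold, Plaur, the receptor of urokinase, 3.48-fold, and Plau, urokinase itself, 2.58-fold, with edgeR adjusted p-values of 0.000162, 0.000826, 0.00497 and 0.00545. These genes act on plasmin from both sides, while Plg itself did not pass the test.

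**Figure D4:**
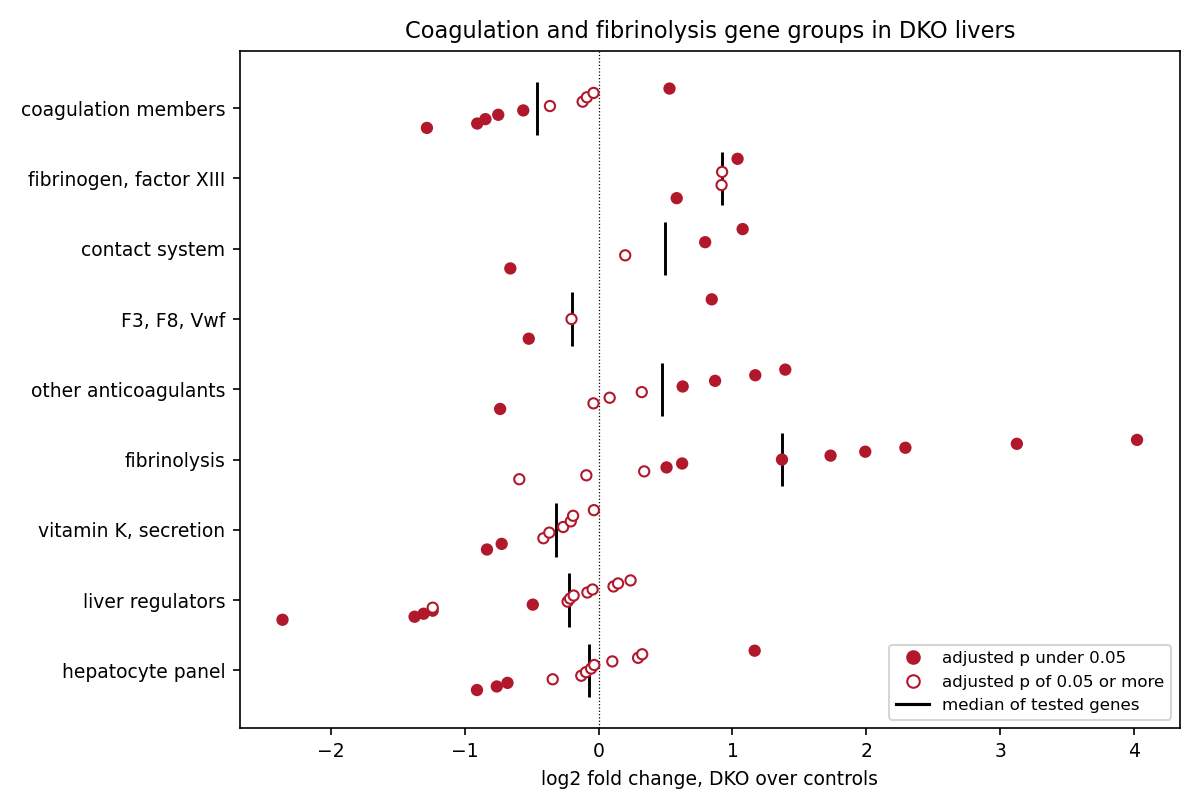
Log2 fold change in DKO livers over controls (x axis) of each tested gene of the coagulation set and of 8 related lists (rows); filled points have an edgeR adjusted p under 0.05 and black lines are medians. The coagulation genes have a median of -0.46 and the fibrinolysis genes one of 1.37.

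Of 8 genes of the vitamin K cycle and of secretion 2 fell and none rose. Ggcx, the enzyme that carboxylates the vitamin K-dependent factors, averaged 79.5 ± 16.6 CPM in DKO livers and 131 ± 17.3 CPM in their controls (SD, n = 4 each; edgeR adjusted p = 0.00497), and Aifm2, a vitamin K reductase, was 1.78-fold higher in controls (edgeR adjusted p = 0.00302). Among 14 liver transcription regulators 5 fell and none rose. Esr1 was 5.13-fold, Nr1h4 2.59-fold, Prox1 2.47-fold and Cebpa 2.36-fold higher in controls, with edgeR adjusted p-values of 4.42e-05, 0.000290, 0.00385 and 0.00470. Hnf4a did not pass the test, at 842 ± 106 CPM in DKO livers and 957 ± 276 CPM in their controls (SD, n = 4 each; edgeR adjusted p = 0.519). In BKO livers none of the genes in these lists passed the edgeR test.

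Other cell markers moved in the same DKO livers. Of 12 other genes of hepatocyte secreted proteins, 3 fell, Alb, Ttr and Apoa1, 1 rose, Ambp, and 8 did not pass the test. The median log2 fold change of the 12 was -0.08. The summed list took 11.8% to 13.1% of all counts in DKO livers, against 14.6% to 16.5% in their controls. Alb, the most abundant of the 12, averaged 53336 ± 11946 CPM in DKO livers and 100122 ± 7780 CPM in their controls (SD, n = 4 each). The sum therefore largely follows Alb. Apoa1 lost its call without DKO-7068, DKO-7070, DKO-7137, WT-7069, WT-7114 or WT-7139. Recruited macrophage markers rose in 9 of 10 genes, to a summed 238 to 1087 CPM in DKO livers, against 69.5 to 84.3 CPM in their controls. Stellate markers rose in 7 of 10 genes and fell in 1, and summed to 1937 to 2920.5 CPM in DKO livers, against 441 to 641 CPM in their controls.

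Bile duct markers, which share Spp1 with the macrophage list, rose in 4 of 6 genes tested, of 10 listed. Their sums were 121 to 928 CPM in DKO livers, against 37.9 to 61.8 CPM in their controls. Spp1 alone was at 63.5 to 837 CPM in DKO livers, against 21.0 to 28.1 CPM in their controls. It was thus a large part of both the bile duct and the macrophage sums. Kupffer cell markers rose in 5 of 10 genes, and their sums of 626 to 691 CPM in DKO livers overlapped the 393 to 667 CPM of their controls. Endothelial markers fell in 4 and rose in 1 of 10 genes, with sums of 662 to 703 CPM in DKO livers, against 709 to 877 CPM in their controls. Platelet markers were near 0 in both groups, and of 3 tested among 8 listed 1 rose and 1 fell. Their sums were 5.50 to 10.4 CPM in DKO livers, against 7.19 to 8.51 CPM in their controls, where Gp1bb, Gp6 and Treml1 had no count. Acute phase genes rose in 9 of 11, with sums of 15964 to 40911 CPM in DKO livers, against 5988 to 7759 CPM in their controls. The part of these cells and of the acute phase in the coagulation results was not tested.

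How libraries are scaled decided the direction of several genes. Under total counts alone, F2, F12 and Plg were positive in DKO livers, and the 6 calls remained at 1 higher and 5 lower. Scaling to the summed hepatocyte genes, which Alb leads, raised the median of all genes to 0.49 on the log2 scale; F2, F7 and F12 were then higher, F11 and Proc lower, and F5, F9 and F10 lost their calls (edgeR adjusted p = 0.0518, 0.609 and 0.303). With the median ratio over the same hepatocyte genes the median of all genes was 0.07, F5, F9, F10, F11 and Proc were lower and F7 higher. Of the genes around them, F8 and Apoa1 lost their calls under total counts and, with Klkb1, Proz, Ggcx, Aifm2 and Ttr, under the summed hepatocyte genes. F7 was higher, and F11 and Proc lower, in DKO livers under every scaling tried.

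**Figure D5:**
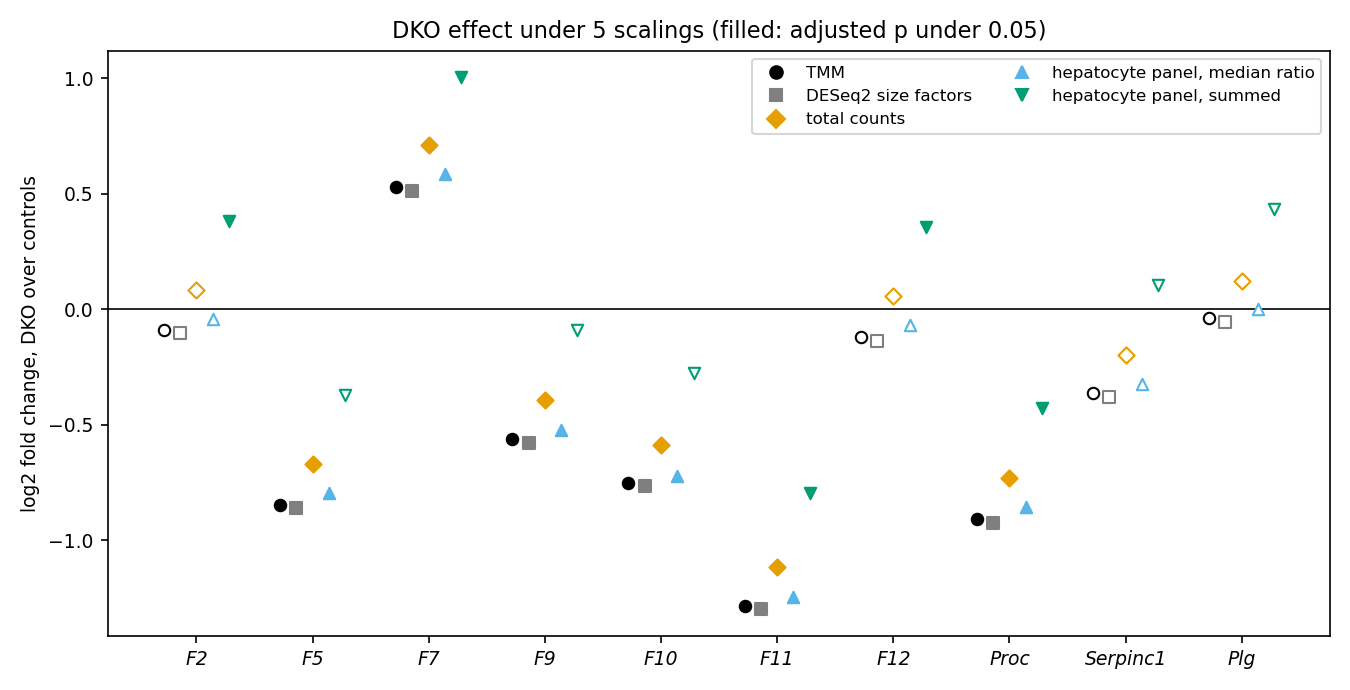
Log2 fold change in DKO livers over controls (y axis) of the 10 coagulation genes under 5 scalings of the libraries, which are trimmed means (TMM), DESeq2 size factors, total counts, the median ratio of 12 hepatocyte genes and the sum of those genes; filled points have an edgeR adjusted p under 0.05. All 5 points are filled for F7, above 0, and for F11 and Proc, below 0, while F2, F12, Serpinc1 and Plg cross 0.

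Within groups, the coagulation genes varied together to different degrees over the 16 libraries. After group means were subtracted from log2 CPM, r was highest for F12 with Proc, at 0.846, and lowest for F5 with F7, at -0.481. Of 14040 genes searched, that most like F10 was C9 (r 0.954, Spearman 0.788), that most like Serpinc1 was Tm6sf2 (r 0.952, Spearman 0.956) and that most like F9 was Fam214a (r 0.944, Spearman 0.838). Without the 2 libraries farthest from the median of F10, its r with C9 was 0.633, while the other pairs kept 0.932 for Serpinc1 and 0.851 for F9. These pairs were selected as the highest of many and share libraries and scaling, so they carry no test.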

How the data were processed

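The deposited values are whole-number counts per gene, not normalized, in 1 table of 24421 rows per experiment. Per the submitters' processing notes, the authors used featureCounts 1.6.2, HISAT2 2.1.0 and Trim Galore 0.4.1; of the builds named there, mm10, GRCm38 and GRCh38, no role is stated. Per the labels' protocols, RNA was extracted with TRIzol and libraries came from a Nugen Ovation kit. Neither annotation nor strand setting is given in the sources used here. F5, Serpinc1 and Plg overlap genes on the opposite strand, whose counts were at most 0.878% of theirs.

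Genes were tested with the edgeR 4.0.16 quasi-likelihood F test (R 4.3.3; filterByExpr, TMM, robust), with Benjamini-Hochberg adjustment over all genes tested and a threshold of 0.05. CPM values are TMM-scaled. The difference of effects was fitted on 24394 shared names, after 27 names turned into dates were dropped. DESeq2 1.42.0, limma 3.58.1 and other scalings, filters and left-out libraries were alternatives. On simulated counts with 200 changed genes, far fewer than were called in the data, the DKO test recovered 10%, 53.4% and 94.4% of genes changed 1.5-fold, 2-fold and 4-fold.

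The members and lists were chosen with earlier results of these data known. Beyond the members, up to 5 called genes per list were named, by adjusted p in the DKO comparison, with listed neighbours of a member and the gene most like each of 3 members; other genes named were chosen after their values were seen. The longer HNF4 form was likewise added after the promoter windows had been read, the short form having been searched first. Genes of cell marker lists are given mostly as counts and sums. Some genes of these lists are counted but not reported here by name.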

Additional observations from a re-analysis of the deposited data

Results flagged for a closer look

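Of 40 sets of 4 libraries, 1 per coagulation gene and group, 5 held a library far from the other 3, and chance alone marks about 1 in 20. In DKO livers, DKO-7112 had 306 CPM of F10, against 141 to 166 CPM in the other DKO libraries, and 62.7 CPM of F11, against 25.7 to 29.1 CPM. Among controls, WT-7114 had 308 CPM of F10 (others 333 to 335 CPM), WT-7139 had 235 CPM of F9 (others 199 to 204 CPM) and ARID1B-F5-WT-2 had 96.3 CPM of F7 (others 117 to 118.5 CPM).

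The DKO effect differed from the BKO effect, by the test of the difference itself, for F5 (-0.78 on the log2 scale), F9 (-0.69), F10 (-0.96), F11 (-1.31) and Proc (-0.82), each with an edgeR adjusted p under 0.05.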

How the results depend on the processing

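The count of coagulation genes called in DKO livers was 5 to 7 over all alternatives run, against 6 in the main result, and that in BKO livers was 0 throughout. The difference called 5, and 4 to 6 when a library was left out; total counts called 3, F7 higher and F10 and Proc lower, and the summed hepatocyte panel called 4 higher and none lower. Scaled to that panel, 7289 of all genes were called in DKO livers (4604 in the main result, 3840 to 4584 when a library was left out) and 7021 for the difference (3162, and 2618 to 3314). In BKO livers 82 genes were called, 143 with the summed panel, 235 with its median ratio (chosen after seeing the data), 355 by DESeq2, 50 in a fit of all 16 libraries, and 17 to 104 when a library was left out. The share of DKO calls that were higher was 53.6%, 72.0% under total counts and 90.6% under the summed panel; for the difference 49.1%, 77.9%, 94.2% and, under the median ratio, 75.2%; in BKO livers 31.7%, 20.4%, 10.5%, 8.09% and, in DESeq2, 42.8%.

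Reversed log2 fold changes were all of genes that missed the threshold in the main result. In DKO livers they were, under total counts, F2 0.0848, F12 0.0579 and Plg 0.123; under the summed panel F2 0.383, F12 0.357, Serpinc1 0.106 and Plg 0.433; and for Plg 0.0429 with DKO-7068 and DKO-7070 summed and -0.211 to 0.0686 when a library was left out. In BKO livers they were F12 -0.00662 under total counts; F2 -0.0637, F9 -0.0417, F12 -0.0820, Serpinc1 -0.0507 and Plg -0.0723 under the summed panel; F2 -0.0898, F9 -0.0661, F12 -0.106, Serpinc1 -0.0752 and Plg -0.0956 under its median ratio; and F11 0.000597 without the 20 most abundant genes, 0.000396 in the fit of all 16 libraries and -0.237 to 0.130 when a library was left out. For the difference they were F2 0.0770, F12 0.0640 and Plg 0.119 under total counts; F2 0.447, F12 0.439, Serpinc1 0.156 and Plg 0.505 under the summed panel; and F2 0.0486, F12 0.0370 and Plg 0.0955 under the median ratio. The cause was not tested. No paired analysis was possible because the groups share no replicate numbers. The DKO tags fall in 2 series that span both groups (WT-7067 to DKO-7070, and DKO-7112 to WT-7139); with the series as a term, 4816 genes were called in DKO livers and the coagulation genes gave 1 higher and 5 lower, as in the main result. In simulations with 200 changed genes, the DKO test found 10% of 1.5-fold changes and the test of the difference 1.47%. In the data 4604 genes were called in DKO livers and 3162 for the difference. Adjusted p-values depend on how many genes change, so these rates may not hold for the data. These rates are not specific to the coagulation genes. Of those that missed the threshold in DKO livers, only Serpinc1 had a confidence interval that reached a 1.5-fold change (-0.74 to 0.01 on the log2 scale). The intervals of F2 (-0.40 to 0.22), F12 (-0.40 to 0.16) and Plg (-0.48 to 0.40) did not. For the difference, those of Serpinc1 (-0.88 to -0.095) and Plg (-0.60 to 0.33) reached it, and those of F2, F7 and F12 did not.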
